A study of Mus musculus with 6 samples.

Results

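The RNAs described here are 9 structural RNAs that carry no protein code and act inside RNA-protein particles. They are the 3 genes of 7SL RNA (*Rn7s1*, *Rn7s2* and *Rn7s6*), the telomerase RNA *Terc*, the 7SK RNA *Rn7sk*, the RNase MRP RNA *Rmrp*, the RNase P RNA *Rpph1* and the Y RNAs *Rny1* and *Rny3*. A row of the count table was taken when its gene symbol was one of these 9, which gave 10 of 61880 rows because *Terc* has 2 rows, and all rows that share an assembled locus number with a member were also added together. *Terc*, *Rn7s1* and *Rn7s6* were chosen by their lower counts in the *fat-1* than in the WT columns. Their differences between genotypes are therefore given as a description without a test, and the other 6 genes were added by their kind. The paper lists *Terc*, *Rn7s1* and *Rn7s6* with positive fold changes for *fat-1* against WT, which is the opposite direction. Genotypes here follow the column labels, and which direction is right was not tested. Of the 10 rows, 7 passed the filter on low counts and had a fold change estimated across the whole table, and the second row of *Terc*, *Rny1* and *Rny3* did not. The annotated row of *Terc* passed only through the WT samples, with 12 to 20 counts there and 2 in every *fat-1* sample.

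The libraries were made from epithelial cells of inguinal mammary glands, taken from female FVB/NJ mice aged 6 to 8 weeks, with 3 *fat-1* and 3 WT samples, each made from pooled cells of several mice. The *fat-1* mice carry a *Caenorhabditis elegans* desaturase gene that turns *n*-6 into *n*-3 polyunsaturated fatty acids throughout the body, so the gene is not restricted to the mammary epithelium, and the promoter that drives it is not given in the sources used here. Both genotypes received the same modified AIN93G diet with 10% safflower oil by weight (22% of energy) for life, and the question is whether lifelong *n*-3 exposure changes RNA levels in these cells. Nothing says how the pools of 1 genotype relate to each other beyond the pooling, so the SDs below measure the spread between these samples only. The SEs of fitted fold changes also draw on the spread of all tested rows or loci, and exact intervals cover counting error only.

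7SL RNA is the scaffold of the signal recognition particle (SRP), which halts ribosomes that make secreted or membrane proteins and brings them to the translocon of the endoplasmic reticulum. Telomerase RNA carries the template from which the reverse transcriptase TERT adds telomere repeats. 7SK RNA holds the elongation factor P-TEFb inactive through HEXIM proteins, RNase P RNA and RNase MRP RNA are the RNA parts of enzymes that cut precursors of tRNA and ribosomal RNA, and Y RNAs bind the Ro60 protein. Most are made by RNA polymerase III, whereas *Terc* is made by RNA polymerase II, and none carries a long poly(A) tail in its mature form, so how many of their molecules enter a library depends on how the library was made. The labels name both total RNA and an mRNA library.

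The 3 genes of 7SL RNA are close copies. In the annotation used here (GENCODE M21, on GRCm38), the transcripts of *Rn7s1* and *Rn7s2* are identical over all 300 bases, and *Rn7s6* matches *Rn7s1* in 260 of 306 alignment columns (85.0%). Inside each gene the annotation also lists a 70-base miRNA gene with a number in place of a name, *Gm47287* in *Rn7s1*, *Gm47305* in *Rn7s2* and *Gm47304* in *Rn7s6*. These 3 have the same sequence.

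*Terc* is annotated at chr3:96414437-96414859 on the minus strand. Its first 150 bases are shown, at chr3:96414710-96414859, and the capitals mark the template CTAACCCT (bases 29 to 36), which pairs with the telomere repeat. CTAACCCT was searched on the strand of the transcript, and the first 150 bases of 0.161% of the 135671 annotated transcripts of at least that length hold it. The annotated transcript is 423 bases long and the RefSeq entry 397. The difference of 26 bases lies at the start, where the RefSeq entry begins at base 96414833, so bases 29 to 36 are counted from the annotated start.
Terc: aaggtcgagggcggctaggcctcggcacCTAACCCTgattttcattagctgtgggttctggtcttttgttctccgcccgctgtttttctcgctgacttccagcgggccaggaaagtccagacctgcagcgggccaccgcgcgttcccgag

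*Rn7sk* lies at chr9:78175303-78175633 on the minus strand. Its first 100 bases, at chr9:78175534-78175633, hold 3 copies of GATC, marked by capitals, a motif that in 7SK RNA is known for HEXIM binding. At least 3 copies occur on the transcript's strand in the first 100 bases of 0.323% of 139316 annotated transcripts of at least that length.
Rn7sk: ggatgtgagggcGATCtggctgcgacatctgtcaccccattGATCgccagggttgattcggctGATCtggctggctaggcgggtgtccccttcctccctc

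The Y RNA genes lie close together on chromosome 6, *Rny1* at chr6:47788069-47788180 on the minus strand and *Rny3* at chr6:47781624-47781725 on the plus strand. Aligned, they match in 81 of 112 columns (72.3%), and both are printed because they are shorter than the other members and hardly counted.
Rny1: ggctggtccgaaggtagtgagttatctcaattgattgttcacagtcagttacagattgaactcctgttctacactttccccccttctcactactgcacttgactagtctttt
Rny3: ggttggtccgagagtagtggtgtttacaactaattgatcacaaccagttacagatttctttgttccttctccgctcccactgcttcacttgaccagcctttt

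How far each RNA can be told from other genes was measured by cutting its transcript into all windows of 100 bases, the length of a read, and looking for them on either strand of other annotated transcripts. For *Rn7s1* and *Rn7s2*, all 201 windows of each were found in another gene. For *Rn7s6* this held for 74 of 192 windows (38.5%), for *Rn7sk* for 142 of 232 (61.2%) and for *Rpph1*, at chr14:50807449-50807767 on the minus strand, for 134 of 220 (60.9%), which lie in the overlapping *Ccnb1ip1* transcript. *Rmrp*, at chr4:43492783-43493063 on the minus strand, shared 25 of 182 windows (13.7%) with *Ccdc107*, which overlaps it by 164 bases on the opposite strand. *Terc* shared 0 of 324, *Rny1* 0 of 13 and *Rny3* 0 of 3 windows. Whether reads that fit several genes were dropped, split or counted more than once, and whether strand was used, is not given in the sources used here, so the split of 7SL counts between its genes is uncertain.

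Total counts per sample were 204539059 to 232148824, which makes 1 count worth 0.00431 to 0.00489 CPM (counts for every 1000000 counts) and the limit allowed by a count of 0, taken as 3 counts, is 0.0129 to 0.0147 CPM. CPM here is relative to the total scaled by TMM, and a fold change is given as log2 of *fat-1* over WT with the standard error (SE) from edgeR's quasi-likelihood fit across all tested rows. In that fit 0 of 30683 rows (0%) passed an adjusted threshold of 0.05 and 678 (2.21%) the unadjusted one, and with the same adjustment edgeR's exact test called 32 (0.104%) and DESeq2 93 (0.303%). Over locus sums the fit called 0 of 24061 (0%), with 274 (1.14%) at the unadjusted threshold, 6 (0.0249%) by the exact test and 8 (0.0332%) by DESeq2. The isolates also held RNA of other cells. The summed CPM of 10 luminal markers ran from 991 to 4423 in *fat-1* and from 1046 to 3366 in WT, that of 9 basal markers from 165 to 624 and from 158 to 505, that of 10 immune markers from 2022 to 3279 and from 1945 to 3379.6, and that of 7 fibroblast markers from 1568 to 6131 and from 3369 to 5679. The 6 endothelial markers summed to 192 to 239 and to 211 to 257 CPM, and the 6 adipocyte markers to 84.8 to 108 and to 113 to 127. Nearly all of the adipocyte sum was *Fabp4*, at 83.2 to 106 CPM in *fat-1* and 112 to 126 in WT. Each other adipocyte marker was at 0.671 CPM or less in every sample. The markers of the labelled cell type were present in every sample, and 1 adipocyte marker was at 0 in at least 1 sample.

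Among the 10 rows, *Rn7s1*, *Rn7s6* and the annotated row of *Terc* were lower in every *fat-1* than in every WT sample, and the second row of *Terc* was higher in every *fat-1* sample. Over all tested rows, 2.70% were lower and 2.57% higher in *fat-1* with no overlap, and since the set was chosen for 3 of these rows the counts say nothing further. The other 6 rows overlapped between genotypes.

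**Figure D1:**
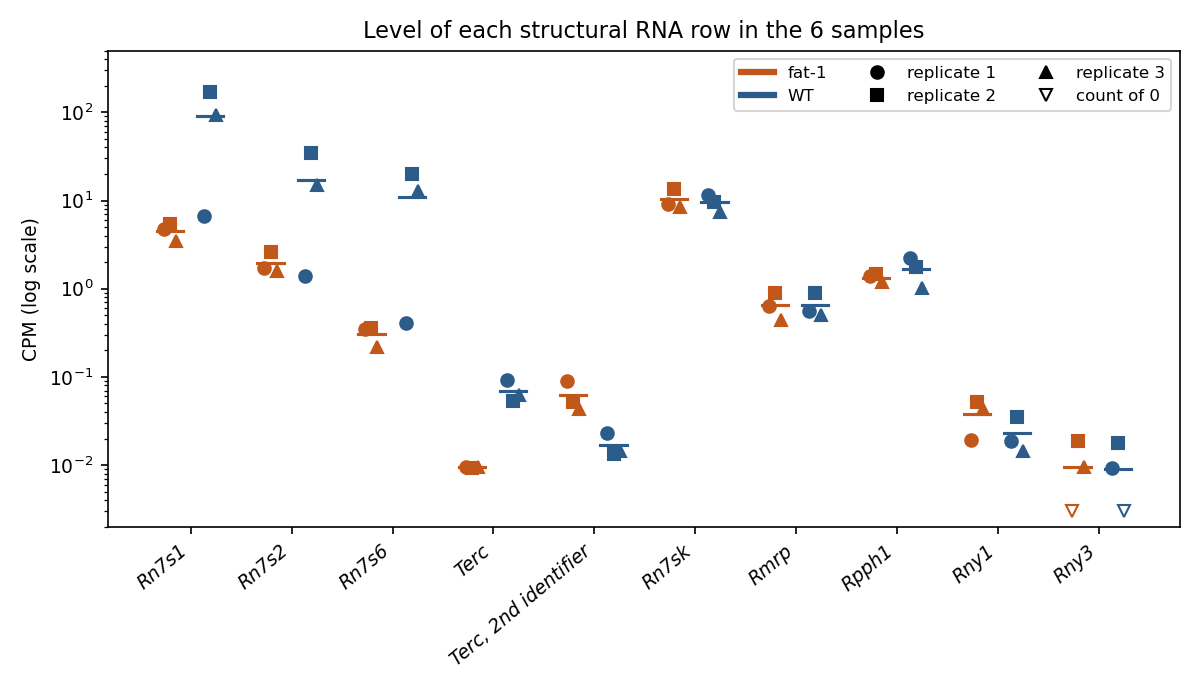
Level of each of the 10 rows in the 6 samples, in CPM on a log scale. Points are samples, with the shape giving the replicate number, horizontal bars are the means of 3 *fat-1* (orange) or 3 WT (blue) samples, and open triangles are counts of 0, drawn at an arbitrary height. WT samples 2 and 3 stand far above the other 4 for *Rn7s1*, *Rn7s2* and *Rn7s6*, while the 2 rows of *Terc* differ between genotypes in opposite directions.

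7SL RNA was at one level in 4 samples and many times higher in WT samples 2 and 3. *Rn7s1* had 1000, 1165 and 730 counts in *fat-1* and 1445, 38552 and 19311 in WT. These are 4.76, 5.44 and 3.50 CPM against 6.75, 171 and 93.8 CPM. The *fat-1* samples lay within 1.55-fold of each other and the WT samples within 25.3-fold. Relative to the *fat-1* mean of 4.57 ± 0.985 CPM (SD, n = 3), WT sample 1 was 1.48-fold, WT sample 2 37.3-fold and WT sample 3 20.5-fold higher. The absence of overlap therefore rests on WT sample 1, at 6.75 against 5.44 CPM in the highest *fat-1* sample. The log2 fold change was −4.31 (SE 1.10). It became −4.85 without WT sample 1 and −3.47 without WT sample 2.

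*Rn7s2*, whose transcript is identical, had 360, 565 and 333 counts in *fat-1* and 298, 7782 and 3128 in WT. WT sample 1 was the lowest of all 6, at 1.39 CPM against 1.60 to 2.64 CPM in *fat-1*, and WT samples 2 and 3 were the highest, at 34.4 and 15.2 CPM. The log2 fold change was −3.10 (SE 1.05) with overlapping genotypes, and it was −3.64 without WT sample 1 and −2.07 without WT sample 2.

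*Rn7s6* had 73, 76 and 45 counts in *fat-1* and 87, 4567 and 2628 in WT, or 0.216 to 0.355 CPM against 0.406, 20.2 and 12.8 CPM. WT sample 1 was again close to the *fat-1* samples, 1.33-fold above their mean, and samples 2 and 3 were 66.0-fold and 41.7-fold above it. The log2 fold change was −5.18 (SE 1.34), with −5.75 without WT sample 1 and −4.43 without WT sample 2.

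The rows of a locus share its reads, and adding them changed what was seen of the 3 genes. The *Rn7s1* locus summed to 1002, 1175 and 735 counts in *fat-1* and to 1455, 38564 and 19316 in WT. The *Rn7s2* locus summed to 1026, 1185 and 739 counts in *fat-1* and to 1476, 38716 and 20201 in WT. The 2 sums were thus nearly equal in every sample, with a ratio of the *Rn7s2* to the *Rn7s1* locus between 1.004 and 1.046. The genotypes no longer overlapped at the *Rn7s2* locus (2.36% of all tested loci were lower in *fat-1* without overlap), where the log2 fold change was −4.31 (SE 1.06) beside −4.30 (SE 1.06) at the *Rn7s1* locus.

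The *Rn7s6* locus summed to 74, 106 and 53 counts in *fat-1* and to 102, 7151 and 3475 in WT. Here the sums brought an overlap, since *fat-1* sample 2 at 0.494 CPM lay above WT sample 1 at 0.477 CPM, and the log2 fold change was −5.47 (SE 1.39). As a share of the *Rn7s1* locus, the *Rn7s6* locus held 7.39%, 9.02% and 7.21% in *fat-1* and 7.01%, 18.5% and 18.0% in WT. WT samples 2 and 3 thus stood apart from the other 4 samples in this proportion as well as in the level.

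**Figure D2:**
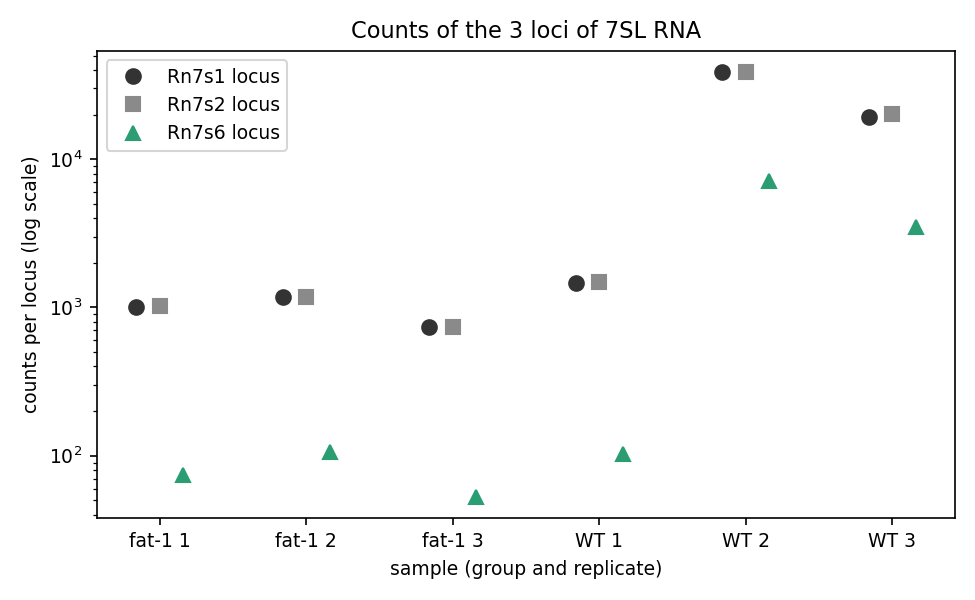
Counts summed over all rows of each 7SL locus in the 6 samples, on a log scale. The circles (*Rn7s1* locus) and squares (*Rn7s2* locus) lie at nearly the same height in each sample, with a ratio of 1.004 to 1.046, and the triangles (*Rn7s6* locus) lie below them at 7.01% to 18.5% of the *Rn7s1* locus. WT samples 2 and 3 are higher than the other samples at all 3 loci.

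Within the *Rn7s2* locus, the share of the row named *Rn7s2* differed between genotypes without overlap, whereas the shares of the other 3 rows overlapped. How often shares within a locus separate in this way over the whole table was not computed, so this is a description only. The row named *Rn7s2* held 35.1%, 47.7% and 45.1% of the locus in *fat-1* and 20.2%, 20.1% and 15.5% in WT (42.6 ± 6.64% against 18.6 ± 2.69%, SD, n = 3). This share did not follow the level of 7SL RNA, because WT sample 1, with its low level, had the share of the other WT samples. The miRNA row *Gm47305* held 50.7%, 34.7% and 40.6% in *fat-1* and 38.6%, 76.7% and 81.0% in WT. A row without a symbol held 13.9%, 17.2% and 13.9% in *fat-1* and 40.9%, 3.19% and 3.49% in WT. In counts this unnamed row had 143, 204 and 103 in *fat-1* and 603, 1234 and 706 in WT, so that WT sample 1 lay 3.97-fold above the *fat-1* mean, close to the 4.83-fold of WT sample 3.

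**Figure D3:**
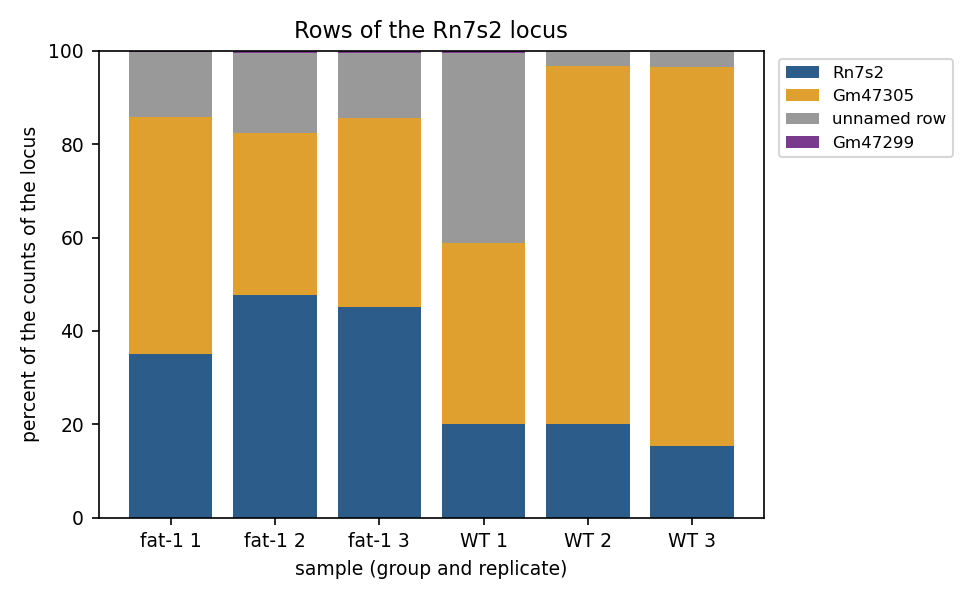
Share of the counts of the *Rn7s2* locus held by each of its 4 rows, in percent, in the 6 samples. The row named *Rn7s2* (blue) holds 35.1% to 47.7% in the *fat-1* samples and 15.5% to 20.2% in the WT samples, and *Gm47305* (yellow) holds most in WT samples 2 and 3.

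The same 70 bases were counted very differently at the 3 genes. *Gm47305* had 520, 411 and 300 counts in *fat-1* and 569, 29679 and 16357 in WT. *Gm47304*, inside *Rn7s6*, had 1, 30 and 8 against 15, 2584 and 847. *Gm47287*, inside *Rn7s1*, had 1 count in each of the 6 samples. A level of any one of these rows is therefore not a level of its sequence. The other miRNA rows, *Gm47295* and *Gm47299*, had 1 to 11 and 3 to 21 counts.

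Summed over all 9 rows of the 3 loci, which was chosen after the rows had been seen, 7SL RNA had 2102, 2466 and 1527 counts in *fat-1* and 3033, 84431 and 42992 in WT. That is 10.0, 11.5 and 7.33 CPM against 14.2, 374 and 209 CPM, without overlap. Whether reads that fit both *Rn7s1* and *Rn7s2* were counted at both is not given, so this sum may hold reads more than once. WT samples 1, 2 and 3 were 1.47-fold, 38.8-fold and 21.7-fold above the *fat-1* mean. The difference of the mean log2 CPM was −3.45 (SE 1.47). It ranged from −4.88 without WT sample 1 to −2.52 without WT sample 2.

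The level of 7SL RNA was set beside the values that vary between the isolates. WT samples 2 and 3 had luminal marker sums of 1941 and 1046 CPM, within the 991 to 4423 CPM of the *fat-1* samples, and basal sums of 273 and 158 CPM. Their fibroblast sums of 5679 and 4913 CPM also lay within the *fat-1* range, and their immune sums were 2159 and 3379.6 CPM. Endothelial sums of 256 and 257 CPM were the highest of the 6 samples, beside 192 to 239 CPM in the other 4. The adipocyte sums, nearly all *Fabp4*, were 127 and 113 CPM. The part of these cells in the level of 7SL RNA was not tested. In pooled cells, fewer cells of a type and less RNA per cell cannot be told apart. The rows whose level over the 6 samples was most like the sum of the 3 named 7SL rows were *Mettl4* (Pearson r = 0.997 of log2(CPM + 1)), *Cryaa* (0.988), *Plin3* (0.986), *Tpt1-ps3* (0.984) and *Myrfl* (0.983). Among the 24478 rows compared, 92 had an r over 0.9, and any row that is high in WT samples 2 and 3 gets a high value because the 6 points fall into 2 clusters. Over locus sums the most alike were *Cryaa*, *Myrfl*, *Gm4353*, *Gm33228* and *Adgrl4*, so *Mettl4*, *Plin3* and *Tpt1-ps3* were not among them. The *Mettl4* row had 198 to 237 counts in *fat-1* and 222, 1929 and 1170 in WT, with WT sample 1 among the *fat-1* values.

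*Terc* had 2 rows that moved in opposite directions, and their sum overlapped between genotypes. The row with the annotated identifier, ENSMUSG00000064796, had 2 counts in every *fat-1* pool, against 20, 12 and 13 in WT. The *fat-1* samples were at 0.00935 to 0.00960 CPM, below the limit of 3 counts, and the WT samples at 0.0934, 0.0531 and 0.0631 CPM. The log2 fold change was −2.80 (SE 0.41), with −2.97 to −2.54 across fits that lacked 1 sample. Fitted without the filter on low counts, which this row passed only through WT, it was −2.80 (SE 0.37). The summed counts of WT were 7.34 times those of *fat-1*, which is given without an interval because the row was chosen for this difference.

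The other row, ENSMUSG00000118406, is not placed by the annotation used here. It had 19, 11 and 9 counts in *fat-1* and 5, 3 and 3 in WT, so every *fat-1* sample lay above every WT sample. Its summed counts in *fat-1* were 3.62 times those in WT, also given without an interval because *Terc* was chosen for a genotype difference. Fitted without the filter on low counts, it had a log2 fold change of 1.82 (SE 0.45).

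Both rows together, a sum chosen after the second row was seen, had 21, 13 and 11 counts in *fat-1* and 25, 15 and 16 in WT. The genotypes overlapped, and the difference of the mean log2 CPM was −0.30 (SE 0.37), with −0.58 to −0.07 when each sample was left out. The ratio of *fat-1* to WT was 0.821, with a counting interval of 0.542 to 1.24. The annotated row held 9.52%, 15.4% and 18.2% of the sum in *fat-1* and 80.0%, 80.0% and 81.2% in WT (14.4 ± 4.42% against 80.4 ± 0.722%, SD, n = 3). These shares are given without an interval, because the annotated row was chosen for its difference, and each rests on only 11 to 25 counts. The interval of the ratio includes 1 and covers counting error only, so at 11 to 25 counts a sample a difference in the summed *Terc* counts was not detectable at this depth.

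**Figure D4:**
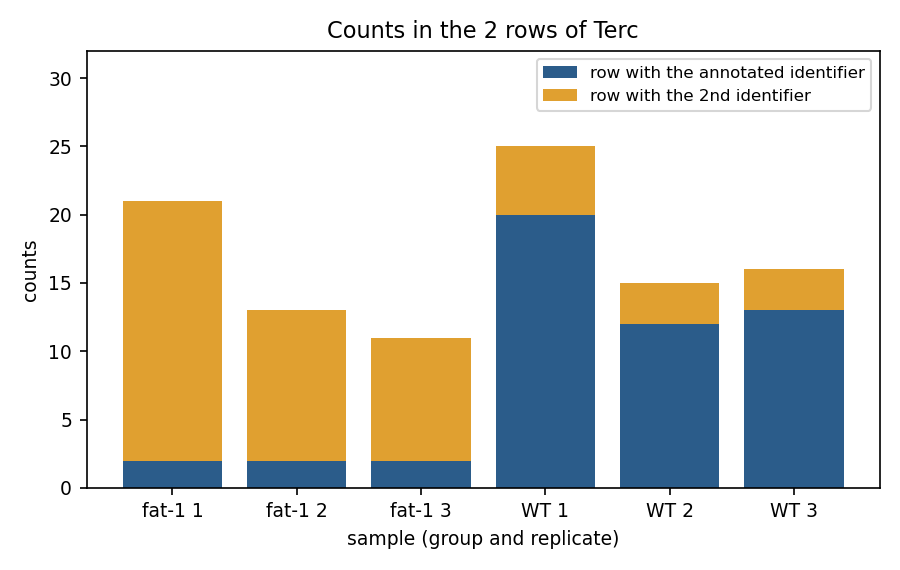
Counts in the 2 rows that carry the symbol *Terc*, stacked, in the 6 samples. The annotated row (blue) holds 2 counts in every *fat-1* pool and 12 to 20 in WT, the second row (yellow) 9 to 19 and 3 to 5, and the heights of the whole bars overlap at 11 to 21 and 15 to 25.

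The rows most like the annotated row of *Terc* were *Nrip1* (Pearson r = 0.984 over 6 samples), *Gm6552* (0.982), *Cops3* (0.981), *Gm20498* (0.979) and *Gm45425* (0.978), and 81 of 24482 rows had an r over 0.9. *Nrip1*, an estrogen receptor coregulator, had 174, 60 and 112 counts in *fat-1* and 2038, 966 and 1224 in WT, with WT sample 1 highest as for *Terc*. The paper reports *Nrip1* as upregulated in *fat-1*, opposite to these columns. Over locus sums *Gm6552*, *Gm45425*, *Gm44746*, *Acvr1c* and *K230015D01Rik* were the most alike, so the loci of *Nrip1*, *Cops3* and *Gm20498* were not among them. The samples of each genotype form a cluster here, and the r describes that pattern and nothing about control.

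The other 5 members overlapped between genotypes. *Rn7sk* had 1912, 2879 and 1740 counts in *fat-1* and 2508, 2190 and 1511 in WT, or 10.3 ± 2.75 against 9.58 ± 2.19 CPM (SD, n = 3). Its log2 fold change was 0.11 (SE 0.27), from −0.13 to 0.27 when each sample was left out, so its sign was not fixed. WT samples 2 and 3, in which 7SL RNA was high, were in the middle and at the low end for *Rn7sk*. The rows *Gm24447* and *Gm26315*, in which windows of *Rn7sk* were also found, had 384 to 649 and 335 to 561 counts, with the samples in the same order as for *Rn7sk*.

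*Rmrp* had 134, 190 and 93 counts in *fat-1* and 119, 204 and 104 in WT, or 0.658 ± 0.221 against 0.654 ± 0.216 CPM (SD, n = 3), with a log2 fold change of 0.01 (SE 0.36) that ran from −0.27 to 0.31 with each sample left out. *Rpph1* had 292, 311 and 246 counts in *fat-1* and 481, 403 and 212 in WT, or 1.34 ± 0.143 against 1.69 ± 0.614 CPM. The lowest *Rpph1* value was in WT sample 3 and the highest in WT sample 1, and the log2 fold change was −0.33 (SE 0.31), from −0.59 to −0.07 with each sample left out. With the counts of *Ccnb1ip1*, which were 0 in 4 samples and 8 and 3 in WT samples 2 and 3, the *Rpph1* locus gave −0.35 (SE 0.30).

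The Y RNAs were near the limit of counting. *Rny1* had 4, 11 and 9 counts in *fat-1* and 4, 8 and 3 in WT, and *Rny3* had 0, 4 and 2 against 2, 4 and 0. The log2 fold changes without the filter on low counts were 0.70 (SE 0.53) for *Rny1* and 0.03 (SE 1.20) for *Rny3*, and differences of this size were not detectable at this depth.

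Per length, in CPM per kilobase of the annotated transcript, the medians over the 6 samples put *Rn7sk* first at 28.4, followed by *Rn7s1* at 20.3, *Rn7s2* at 7.26, *Rpph1* at 4.46, *Rmrp* at 2.12, *Rn7s6* at 1.31, *Rny1* at 0.243, both rows of *Terc* together at 0.170 and *Rny3* at 0.0928. The levels per kilobase of *Rn7sk* ran from 22.2 to 40.6, those of *Rpph1* from 3.23 to 7.04, those of *Rmrp* from 1.59 to 3.21, and those of both *Terc* rows from 0.125 to 0.276. *Rpph1* was above *Rmrp* in each of the 6 samples, whereas the ranges of *Rny1* (0.130 to 0.459), *Terc* and *Rny3* (0 to 0.183) overlapped. The place of *Rn7s2* holds for its single row, whose share of the locus is uncertain, since its locus sum was nearly equal to that of *Rn7s1* in every sample. The place of the 7SL genes also depended on the sample, as *Rn7s1* had 11.7 to 22.5 per kilobase in 4 samples and 569 and 313 in WT samples 2 and 3, where it passed *Rn7sk*. *Rn7s6* had 0.742 to 1.40 in those 4 samples and 69.4 and 43.9 in WT samples 2 and 3.

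No locus sum of the protein genes whose products bind these RNAs or make them passed a test between genotypes. Of 84 genes in 7 lists, all were in the table and lay in 81 loci, because *Srp54a*, *Srp54b* and *Srp54c* share 1 locus and *Hexim1* and *Hexim2* another. None of the 81 locus sums passed the adjusted threshold by the quasi-likelihood test, the exact test or DESeq2, and 0 passed the unadjusted threshold of the quasi-likelihood test. Their log2 fold changes ran from −0.21 to 0.12 with SEs of 0.06 to 0.43, and 38 were positive and 43 negative, with a median of −0.003 beside 0.002 over all loci. As single rows, 83 were tested, with log2 fold changes from −1.06 to 1.49, and 2 passed the unadjusted threshold, which 2.21% of all tested rows passed. They were *Ccnt2* at 0.60 (edgeR unadjusted p = 0.0254) and *Matr3* at −1.01 (edgeR unadjusted p = 0.0394), with adjusted *p*-values of 1. In 14 of the 81 loci another gene is summed with the listed one, among them the loci of *Srp54*, *Matr3*, *Snapc1* and *Rpp21*.

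Among the 6 loci of the SRP proteins, the partners of 7SL RNA, log2 fold changes ran from −0.08 to 0.04 (median −0.017). *Srp14*, which binds the Alu end of 7SL RNA, was at 51.1 ± 2.14 CPM in *fat-1* and 54.0 ± 0.610 in WT (SD, n = 3), a log2 fold change of −0.08 (SE 0.08). The locus of the *Srp54* genes, whose protein recognizes the signal peptide, gave −0.02 (SE 0.07) and that of *Srp68* 0.04 (SE 0.10). The *Srp54* locus also sums *Fam177a*, *Fam177a2* and *Gm49376*. As single rows, *Srp54a* gave −0.93 (SE 1.31) and *Srp54b* −1.06 (SE 0.54), so the locus sum is not a level of *Srp54* alone. All 8 loci of the SRP receptor and the translocon were below 0, from −0.18 to −0.01 with a median of −0.044, and none passed the test. *Sec61b*, a subunit of the translocon channel, gave −0.18 (SE 0.13), *Srprb*, the membrane subunit of the SRP receptor, −0.05 (SE 0.09), and *Sec61g* −0.05 (SE 0.09). No locus sum of an SRP protein thus showed a spread like that of *Rn7s1*, which was 25.3-fold among the WT samples.

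The 13 partners of telomerase RNA had log2 fold changes of −0.10 to 0.07. *Tert*, the reverse transcriptase, was at 2.07 ± 0.352 CPM in *fat-1* and 2.21 ± 0.254 in WT (SD, n = 3), a log2 fold change of −0.10 (SE 0.19). *Shq1*, which helps to assemble dyskerin, gave 0.07 (SE 0.12), and *Tgs1*, the cap hypermethylase, 0.06 (SE 0.12). The 11 proteins of RNase P and RNase MRP ranged from −0.21 to 0.12, with *Pop7* at −0.18 (SE 0.14), *Pop1* at −0.21 (SE 0.23) and *Rpp21* at 0.07 (SE 0.11).

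The partners of 7SK RNA ranged from −0.06 to 0.11, with the P-TEFb cyclin *Ccnt2* at 0.11 (SE 0.08), the locus of *Hexim1* and *Hexim2* at −0.06 (SE 0.09) and the capping enzyme *Mepce* at 0.05 (SE 0.09). Among the 5 Y RNA partners, from −0.07 to 0.01, *Trove2*, which encodes Ro60, was at −0.07 (SE 0.34), *Puf60* at −0.05 (SE 0.07) and the *Matr3* locus at −0.01 (SE 0.07). The 32 subunits and factors of RNA polymerase III ranged from −0.13 to 0.09 with a median of 0.008. *Snapc1*, of the complex that binds the promoters of 7SK and similar genes, gave −0.13 (SE 0.08), *Gtf3a*, the 5S rRNA factor, −0.12 (SE 0.12), and the polymerase subunit *Polr3e* 0.08 (SE 0.09).

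**Figure D5:**
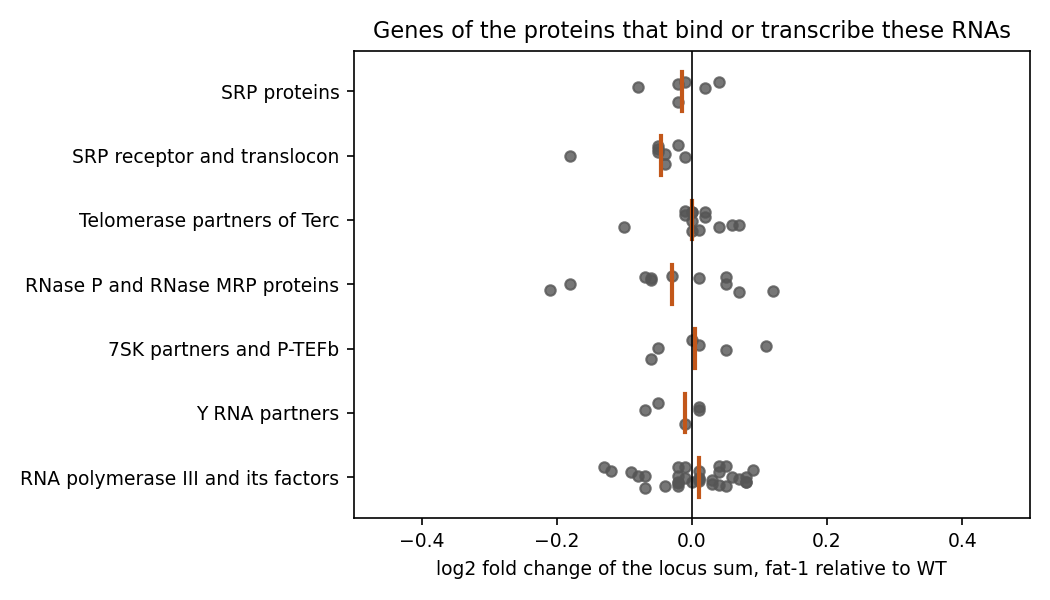
Log2 fold change of *fat-1* over WT for the locus sums of the 7 lists of protein genes. Each grey point is 1 locus, the orange lines are list medians, and the vertical position within a list is random. All 81 points lie between −0.21 and 0.12.

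Genes next to the members were compared to see whether they moved with them. Of 6 genes within 2000 bases outside the members' loci, 5 were tested and none passed the quasi-likelihood test, adjusted or not, and none the adjusted exact test or DESeq2. *Rps29*, a ribosomal protein gene 108 bases from *Rn7s1* on the opposite strand, was at 282 ± 27.3 CPM in *fat-1* and 274 ± 33.2 in WT (SD, n = 3), a log2 fold change of 0.04 (SE 0.12), and in WT samples 1 to 3 it was at 263, 249 and 312 CPM. *Ccdc107*, which overlaps *Rmrp*, gave 0.15 (SE 0.12), *Parp2*, 73 bases from *Rpph1*, 0.05 (SE 0.11), *C920006O11Rik*, 280 bases from *Rn7sk*, 0.04 (SE 0.28), and *Gm21960*, 1075 bases from *Terc*, −0.25 (SE 0.47). *Rpl31-ps7*, near *Rny1*, had 0 to 4 counts and was not tested.

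Other RNAs that mostly lack a poly(A) tail were compared because their level depends on the library as that of the members may. These were 354 rows of small nuclear RNAs, small Cajal body RNAs, snoRNAs, histones, 5S rRNA and vault RNA, of which 251 had counts and 66 were tested. None of the 66 passed the quasi-likelihood test, adjusted or not, and none the adjusted exact test or DESeq2, with log2 fold changes from −0.73 to 0.61 and a median of 0.020 beside 0.005 over all rows. Their summed level was 42.6, 54.0 and 46.5 CPM in *fat-1* and 42.1, 44.6 and 51.1 CPM in WT. Of this, 9 histone rows held 22, 29 and 25.4 CPM in *fat-1* and 22.4, 22.8 and 28 CPM in WT. Rows with a symbol starting with Snora or Snord summed to 17.5, 21.9 and 18.4 CPM in *fat-1* and to 16.8, 18.9 and 20.0 CPM in WT. Those with a symbol starting with Rnu summed to 0.955 to 1.18 CPM in *fat-1* and to 0.976 to 1.24 CPM in WT. The Rnu rows hold small nuclear RNAs and also snoRNAs, among them *Rnu3b1*, *Rnu3b2*, *Rnu3b3* and *Rnu3b4*. WT samples 2 and 3, with 38.8-fold and 21.7-fold more 7SL RNA than the *fat-1* mean, did not stand apart from the other samples in any of these sums. Whether the making of the libraries had a part in the level of 7SL RNA was not tested.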

How the data were processed

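RNA was sequenced from 3 *fat-1* and 3 WT pools of mammary epithelial cells, and genotype and replicate number came from the labels. The authors mapped paired reads to GRCm38 with HISAT2 and used StringTie to make the deposited table, whose values are estimated counts given as whole numbers that were not normalized. Release of the annotation, derivation of the counts and use of strand are not given in the sources used here. Rows with the same locus number were also summed. The rounded counts were tested in R 4.3.3 with edgeR 4.0.16 (quasi-likelihood test, TMM, filterByExpr with a minimum count of 10, Benjamini-Hochberg adjustment, threshold 0.05) with genotype as the only term. The SE of a fold change was taken as its size over the square root of the F statistic, and for sums added later it comes from the 3 values of each genotype. DESeq2 1.42.0, edgeR's exact test, other scalings, no filter, a replicate block and leaving out each sample were alternatives. The tests were tested first on simulated data with less spread between samples than these data, so that check does not measure what could be detected here. Intervals of count ratios are exact (Clopper-Pearson, 95%) and treat the estimated counts as counted reads. Transcripts and positions are from GENCODE M21 and were processed with Biopython 1.88, and all 9 genes were matched by symbol. RefSeq names 8 of them, without *Rn7s6*. The sequences of the 7SL genes are not reported here. All 9 members, the 3 genes of each partner list with the smallest *p*-value in the locus fit, all neighbours within 2000 bases and the 5 rows and 5 loci most alike were named. *Ccnt2* and *Matr3* as rows, the other rows of the 7SL loci and the copies of *Rn7sk* were named after their values were seen. The members and lists were chosen with earlier results of these data known. Depth was similar in all samples, and the precision is limited by 3 samples a genotype, and by counts for *Terc* and the Y RNAs. The check of replicate numbers is with the alternatives. Tables were handled with pandas 2.3.3, numpy 2.4.6 and scipy 1.17.1 in Python 3.11.15, and plots were drawn with matplotlib 3.10.9.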

Additional observations from a re-analysis of the deposited data

How the results depend on the processing

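The number of rows past the adjusted threshold was 0 in edgeR's quasi-likelihood test, 93 with DESeq2, 32 with the exact test and 0 to 2 with each sample left out. For locus sums it was 0, 8, 6 and 0 to 1. Samples with the same replicate number in both genotypes had correlations of their deviations from the genotype means of 0.514, −0.0956 and 0.074, so the numbers do not pair the samples, and not every sample correlated best with its own number. With a replicate block, 0 rows and 0 locus sums passed the adjusted threshold (784 and 376 without adjustment), and 0 of the partner, neighbouring and other RNAs did. In that fit *Rn7s1* had a log2 fold change of −3.64 and *Rn7s6* one of −4.40. The partner genes, neighbours and other RNAs without a poly(A) tail had 0 calls at the adjusted threshold under every alternative run. Under the 12 alternatives, the fold changes of *Rn7s1*, *Rn7s2*, *Rn7s6*, *Rpph1* and the annotated *Terc* row stayed below 0, while *Rn7sk* kept its sign in 10 and *Rmrp* in 7. For *Rn7s1*, *Rn7s6* and the *Terc* row, this sign was the reason for the choice, so its constancy is no support for a genotype difference. With 3 samples a genotype, the spread of 7SL RNA within WT limits any statement on its genotype difference, and with 11 to 25 counts a sample counting limits that of *Terc*.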
